A study of Saccharomyces cerevisiae YPS1009 with 8 samples.

Results

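Ribosome footprints of the Chr12 aneuploid on day 4 of culture were set against those of the same strain in log phase, to describe which genes and functions gained or lost footprint share once the cells had left exponential growth. The comparison held 4 of the 8 libraries of the series, chosen by their labels as 2 of Chr12 on day 4 and 2 of Chr12 in log phase. Chr12 is a haploid of YPS1009, a wild oak-soil yeast, with a duplicated chromosome XII. The study's strain list gives it as MATa ho-Δ1 his3-Δ, with His3MX6 and NatMX markers in the intergenic region between BER1 and INA1 on chromosome XII, so the group stands for a single engineered strain. The other 4 libraries came from the haploid euploid of the same background (MATa ho-Δ1, with NatMX at the same site), 2 on day 4 and 2 in log phase, and entered the fit and the closing comparison. All cultures were grown in the rich medium YPD at 30 °C, log phase cells were taken after 3 generations, and day 4 cells had passed glucose exhaustion and were labelled as stationary phase.

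Yeast in glucose medium ferments, and spends much of its translation on ribosomes and glycolytic enzymes. When glucose runs out, cells respire the ethanol and acetate that they made, turn on the glyoxylate cycle and gluconeogenesis, lay down trehalose and glycogen, recycle proteins through the vacuole, and enter quiescence with low overall translation. A footprint is the piece of a message that a ribosome shields from nuclease, so the footprints on a gene depend both on how much of its message is present and on how many ribosomes each message carries. These cannot be told apart without matched RNA libraries, and neither can fewer translating cells and fewer footprints per cell.

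The Chr12 day 4 libraries held 396306 and 2224955 reads (replicates 1 and 2), against 2354539 and 1981814 in log phase, so replicate 1 of day 4 was the shallowest of the 4. At day 4, 66.9 and 53.9% of reads lay in the main reading frame, against 65.4 and 70.4% in log phase, and the last 2 codons of genes held 0.827 and 2.05% of reads at day 4, against 0.393 and 0.142% in log phase. With reads of the gene body alone, 732 genes rose and 510 fell, and the part of reading frame and depth in the results was not tested. The MATa receptor gene STE2 had 4 and 9 reads at day 4 and 482 and 287 in log phase. Of the other a-specific genes, MFA2, STE6 and BAR1 had 204 and 104, 317 and 194, and 211 and 59 reads in log phase. MFA1 had 17 and 10 there and ASG7 had 5 and 2. The alpha-specific genes MF(ALPHA)1, MF(ALPHA)2, SAG1 and STE3 had from 0 to 35 reads in any Chr12 library, a range that also holds MFA1 and ASG7. At day 4 the markers did not separate the mating types clearly, since STE3 had 6 and 10 reads. HO had 0 to 3 reads. HIS3 went against the strain list: it had 23 and 76 reads at day 4 and 87 and 75 in log phase, and in both log phase libraries its reads lay in all 10 equal parts of the coding sequence. Genes of chromosome XII stood above the rest in Chr12 over the euploid by 1.48-fold and 1.83-fold at day 4 and by 1.65-fold and 1.62-fold in log phase.

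Values are given in 2 ways. Levels are shares, in reads per 1000000 reads of the library (RPM). Fold changes are log2 values of day 4 over log phase from edgeR with its standard error, after TMM scaling, which sets the libraries level on the bulk of genes rather than on their totals. The reads were spread over more genes at day 4, where 269 and 226 genes held 50% of them, against 96 and 98 genes in log phase. A gene with no change on the TMM scale gained about 1.57-fold in share, and over all tested genes the median change stood at 0.25 after TMM scaling and at 0.91 by library totals (log2).

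Of 5794 genes tested, 767 rose at day 4 (13.2% of genes tested) and 560 fell (9.67%), at an FDR of 0.05 in edgeR. By library totals the counts were 1277 higher and 338 lower, so that 79.1% of calls were higher, against 57.8% with TMM. All 1327 called genes changed the same way in both replicate pairs. The median change was 8.58-fold among genes that rose and 5.33-fold among genes that fell, and no called gene moved by less than 1.34 on the log2 scale. In share of reads, both day 4 libraries lay above both log phase libraries for 3000 genes (51.8%) and below them for 1024 (17.7%). Every gene that rose was among the 3000, and every gene that fell was among the 1024. The counts rest on all 4 libraries. With a single day 4 library, 379 genes rose and 52 fell (without replicate 1) or 310 rose and 111 fell (without replicate 2). With a single log phase library, 248 rose and 214 fell (without replicate 1) or 52 rose and 10 fell (without replicate 2). Euploid libraries entered the fit too, and leaving 1 out also moved the Chr12 calls. Without euploid day 4 replicate 1 the median log2 fold change over all tested genes was 0.14, and without euploid log phase replicate 2 it was 0.26. The parts of the shared spread, the count filter and the scaling in this were not tested. No called gene had the other sign in any of these fits. That was largely fixed beforehand, since both day 4 libraries of every called gene already lay outside both log phase libraries in share.

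**Figure D1:**
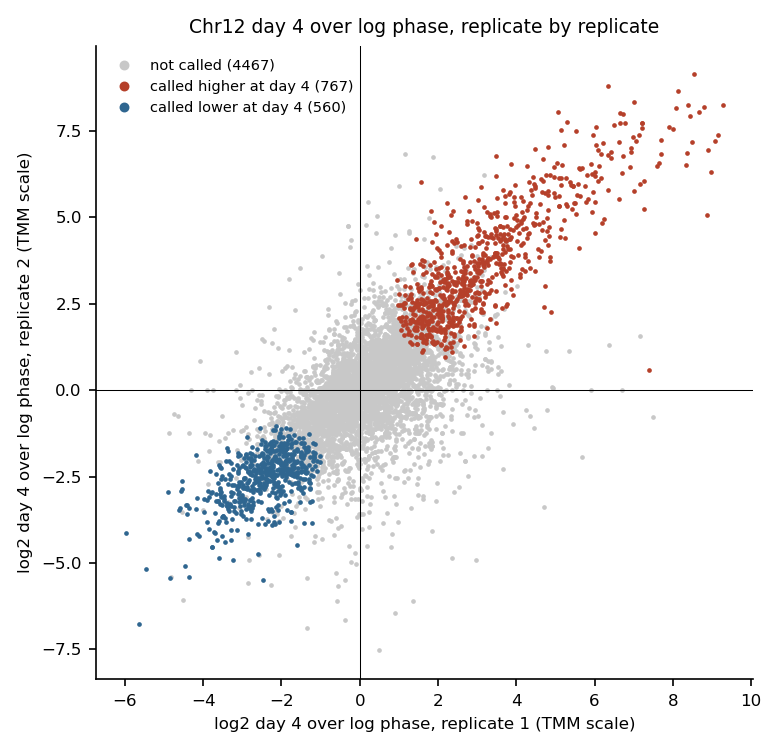
Log2 of day 4 over log phase in Chr12 for each of the 5794 genes tested, replicate 1 on the x axis and replicate 2 on the y axis, both on the TMM scale. Red points are the 767 genes that rose, blue points the 560 that fell and grey points the 4467 that were not called. Red points lie to the upper right and blue points to the lower left of the origin.

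The genes that rose held 32.8 and 37.9% of all footprints at day 4, against 1.56 and 1.39% in log phase. The genes that fell held 13.3 and 14.1% at day 4, against 56.01 and 57.7% in log phase. These shares describe how far the selected genes moved and are no test. The 10 genes with the largest mean share at day 4 were TDH3, ENO1, ADH1, PDC1, FBA1, TDH1 and CDC19 of glycolysis and fermentation, the citrate synthase gene CIT2, ACH1, a mitochondrial CoA transferase that handles acetate, and SED1, a cell wall mannoprotein. The 10 largest in log phase were PDC1, ENO2, FBA1 and ADH1, the elongation factor genes YEF3, TEF1 and its near-identical copy, the Hsp70 gene SSA2 and the ribosomal protein genes RPL41A and RPL41B. Only 3 genes, PDC1, FBA1 and ADH1, were in both sets. The day 4 set held 9.34 and 8.64% of reads at day 4, against 9.98 and 7.43% in log phase, and the log phase set held 5.75 and 5.31% of reads at day 4, against 19.6 and 16.5% in log phase.

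**Figure D2:**
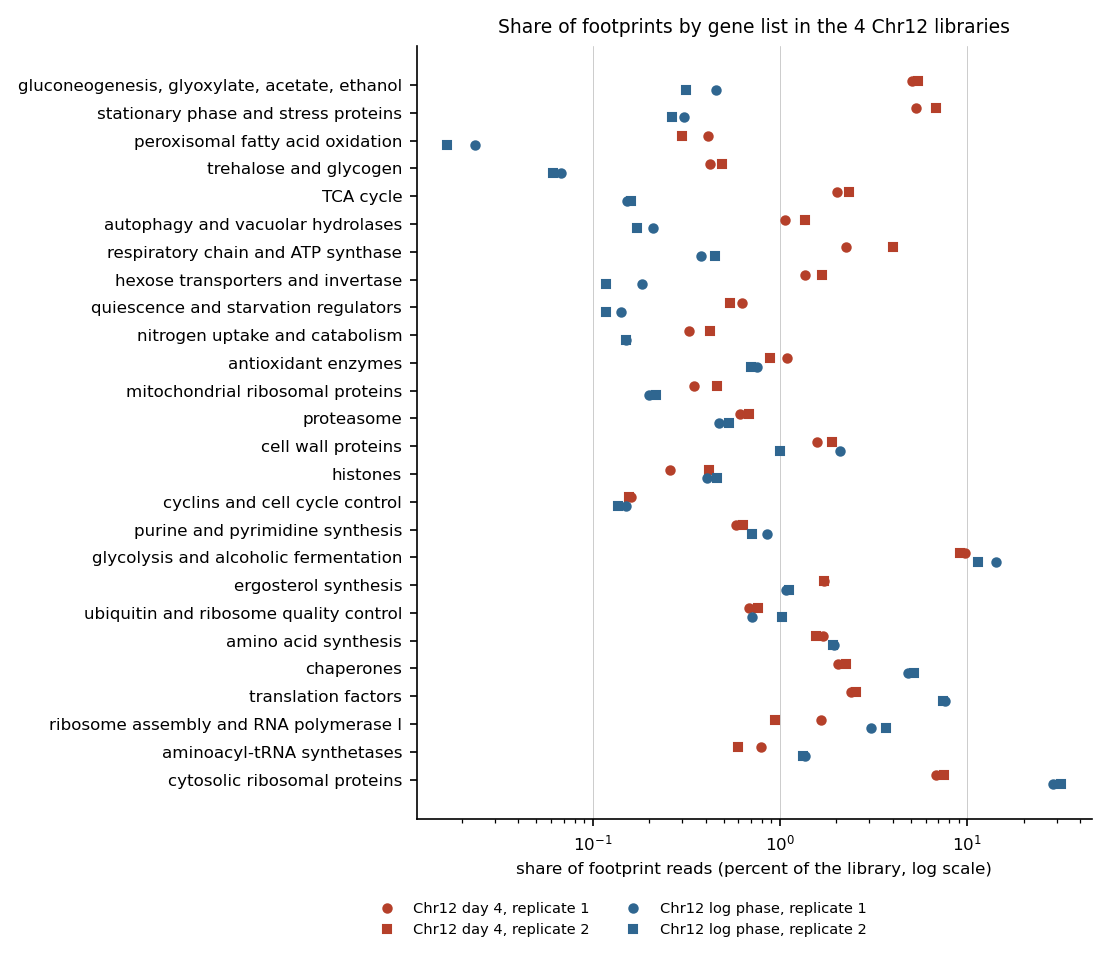
Share of footprint reads in percent of each library (log axis) for 26 gene lists, ordered by median log2 fold change. Red marks are the Chr12 day 4 libraries and blue marks the Chr12 log phase libraries, circles replicate 1 and squares replicate 2. Ribosomal proteins stand at 6.84% and 7.47% at day 4, against 28.8% and 31.8% in log phase, and genes of gluconeogenesis, the glyoxylate cycle, acetate and ethanol use hold 5.08 and 5.44% of reads at day 4, against 0.458 and 0.315% in log phase.

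The 12 genes that rose most were taken from called genes above the median abundance over all 8 libraries. Genes high only at day 4 can pass that filter. The 12 had only 2 to 31 reads in a log phase library, so that the size of their fold change depends on the prior count, while their day 4 reads ran from 243 to 16150. PHO89, a sodium-coupled phosphate transporter, had 3566 and 6364 RPM at day 4, against 5.10 and 6.56 in log phase (log2 fold change 9.10 ± 0.81, FDR = 0.00191). ADY2, an acetate transporter, had 6716 and 4877 RPM at day 4, against 8.49 and 10.1 in log phase (log2 fold change 8.59 ± 0.60, FDR = 0.00191). HXT5, a hexose transporter of slow-growing cells, had 5020.0 and 7259 RPM at day 4, against 10.6 and 15.6 in log phase (log2 fold change 8.21 ± 0.79, FDR = 0.00191). In all of these both day 4 libraries stood far above both log phase libraries, which the choice of the most extreme called genes fixed beforehand. Every gene that rose had both day 4 shares above both log phase shares, as did 51.8% of all genes tested. HSP30, a plasma membrane stress protein, had 1923 and 2983 RPM at day 4, against 3.40 and 4.04 in log phase, and COX26, a small protein of the respiratory supercomplexes, had 613 and 1891 RPM at day 4, against 2.12 and 3.03 in log phase. SPG4, needed for survival in stationary phase, had 2577 and 1565 RPM at day 4, against 2.12 and 6.06 in log phase. DPA10, YNL195C, IMA2, RGI2, DDR2 and SPS100 completed the 12, with log2 fold changes from 8.18 to 9.31. IMA2, an isomaltase, has near-identical relatives, so its reads could belong to them.

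The 12 that fell most were led by CYS3, the cystathionine gamma-lyase of cysteine synthesis, with 47.95 and 19.3 RPM at day 4, against 1514 and 1423 in log phase (log2 fold change -6.20 ± 1.19, FDR = 0.00998). Several of the 12 had few reads at day 4, so the size of their fold change is uncertain. CYS3 had 19 and 43 reads at day 4, SAM4 had 5 and 6 and FRE4 had 7 and 16, while SSA2 had 253 and 1585. SAM1, an S-adenosylmethionine synthetase, had 63.1 and 143 RPM at day 4, against 2491 and 1620.4 in log phase, and SAM4, a homocysteine methyltransferase that uses S-adenosylmethionine, had 12.6 and 2.70 RPM at day 4, against 80.3 and 74.2 in log phase, a call lost by library totals. STE2, the alpha-factor receptor, had 10.1 and 4.05 RPM at day 4, against 205 and 145 in log phase (log2 fold change -5.47 ± 0.67, FDR = 0.00321). The cytosolic Hsp70 gene SSA2 had 639 and 712 RPM at day 4, against 17471 and 16509 in log phase (log2 fold change -5.30 ± 0.47, FDR = 0.00191). Both day 4 libraries lay below both log phase libraries for each of these genes, as for every gene that fell, beside 17.7% of all genes tested. ZUO1, which encodes a ribosome-bound J-protein, the nucleotide synthesis genes IMD4 and URA7, the arginase gene CAR1, the phosphatase gene YVH1, the cell wall gene UTR2 and the ferric reductase gene FRE4 had log2 fold changes from -4.96 to -4.18.

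Genes of the translation machinery fell together. Of 137 ribosomal protein genes, 124 fell and 0 rose, with a median log2 fold change of -2.68, against 0.25 over all tested genes. As a group they held 6.84 and 7.47% of reads at day 4, against 28.8 and 31.8% in log phase. The 80 genes of the large subunit and the 57 of the small subunit had like medians, -2.70 and -2.63, and 76 and 48 of them fell. With 1 read counted per position, which caps well-covered genes, the median was -0.82. RPL28, which has no second copy, had 560.3 and 655 RPM at day 4, against 3828 and 3897 in log phase (log2 fold change -3.32 ± 0.46, FDR = 0.00461), a call lost with 1 read counted per position. RPL34B had 368 and 336 RPM at day 4, against 4056 and 3909 in log phase and RPL33A had 217 and 200.5 RPM at day 4, against 2460.0 and 1419.5 in log phase, although most ribosomal proteins have a near-identical second gene that reads could be split with. RPL22B, the minor copy of its pair, was the only member with a value above 0, 0.99 ± 0.87, and was not called (FDR = 0.469).

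Ribosome assembly genes fell as well. Of 120 genes for assembly factors and RNA polymerase I, 78 fell and 0 rose (median -2.06). NOP2, an rRNA methyltransferase, had 75.7 and 48.99 RPM at day 4, against 328 and 423 in log phase (log2 fold change -3.30 ± 0.47, FDR = 0.00495). BRX1 and ENP1, which act on the large and small subunit precursors, had log2 fold changes of -2.89 ± 0.43 and -3.03 ± 0.45. Of 39 translation factor genes 19 fell (median -1.72). YEF3, the fungal elongation factor 3, had 3155 and 3814 RPM at day 4, against 24874 and 19573 in log phase (log2 fold change -3.31 ± 0.47, FDR = 0.00495), and FUN12, which encodes eIF5B and joins the subunits, had 356 and 249 RPM at day 4, against 1693 and 1473 in log phase. TEF4, a subunit of the exchange factor of elongation factor 1, had a log2 fold change of -3.31 ± 0.49. Of 21 aminoacyl-tRNA synthetase genes 16 fell (median -2.10), and KRS1 for lysine, WRS1 for tryptophan and TYS1 for tyrosine had log2 fold changes of -3.50 ± 0.51, -2.78 ± 0.45 and -2.40 ± 0.43. With 1 read counted per position the medians were -0.98 for translation factors and -1.34 for synthetases. Together these 4 lists held 11.7 and 11.5% of footprints at day 4, against 40.8 and 44.1% in log phase, and 237 of their 317 genes fell while 0 rose. Of 75 genes for ribosomal proteins of mitochondria, edgeR called 0 in either direction, 5 had an unadjusted p under 0.05, and DESeq2 called 1 higher. Library totals called 9 higher. The list had a median of 0.30, which turned to -0.03 with the second tables and to -0.23 without day 4 replicate 2. MRPL16, their most changed member by p-value, had 55.5 and 133 RPM at day 4, against 16.1 and 13.6 in log phase (log2 fold change 2.09 ± 0.67, FDR = 0.0576), and 10 of 19 alternatives called it higher.

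Genes that feed carbon from ethanol and acetate rose most as a group. Of 24 genes of gluconeogenesis, the glyoxylate cycle and acetate and ethanol use, 20 rose and 0 fell, with a median log2 fold change of 6.18. ALD4, the mitochondrial aldehyde dehydrogenase that makes acetate, had 3142 and 3092 RPM at day 4, against 34.8 and 44.9 in log phase (log2 fold change 5.61 ± 0.58, FDR = 0.00228). ACS1, an acetyl-CoA synthetase, had 4904 and 3762 RPM at day 4, against 8.49 and 25.7 in log phase (log2 fold change 7.26 ± 0.84, FDR = 0.00280). The values of the next 4 genes were looked up after those of the list had been seen. ICL1, isocitrate lyase of the glyoxylate cycle, had 1875 and 3023 RPM at day 4, against 19.96 and 25.2 in log phase, and MLS1, the malate synthase that follows it, had 2478 and 2351 RPM at day 4, against 5.52 and 7.06 in log phase. PCK1, which makes phosphoenolpyruvate for gluconeogenesis, had 3273 and 5486 RPM at day 4, against 8.92 and 30.3 in log phase, and FBP1, the fructose bisphosphatase of the same path, had 1037 and 1573 RPM at day 4, against 4.25 and 5.55 in log phase. No day 4 library overlapped a log phase library for any of the 6 enzymes, as for every gene that rose. Both day 4 shares lay above both log phase shares for 51.8% of all genes tested.

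The tricarboxylic acid cycle and the respiratory chain rose too. Of 17 genes of the cycle, 11 rose and 0 fell (median 2.80), and the list held 2.01 and 2.34% of reads at day 4, against 0.152 and 0.1604% in log phase. All 4 genes of succinate dehydrogenase rose. SDH2, its iron-sulfur subunit, had 2769 and 3942 RPM at day 4, against 13.2 and 20.7 in log phase (log2 fold change 6.97 ± 0.66, FDR = 0.00191). SDH1, its flavoprotein, had 1113 and 1619.5 RPM at day 4, against 16.99 and 24.2 in log phase (log2 fold change 5.40 ± 0.85, FDR = 0.00575), and the membrane anchors SDH3 and SDH4 had log2 fold changes of 3.94 ± 0.84 and 4.51 ± 0.80. KGD1, a subunit of alpha-ketoglutarate dehydrogenase, had 1883 and 2087 RPM at day 4, against 129 and 103 in log phase (log2 fold change 3.45 ± 0.49, FDR = 0.00495). Of 37 nuclear genes of the respiratory chain and the ATP synthase, 20 rose and 0 fell (median 2.48), and in 36 of them both day 4 shares lay above both log phase shares, beside 51.8% of all genes tested. By complex, 5 of 9 genes of complex III rose, 6 of 9 of complex IV, 6 of 14 of the ATP synthase and 2 of 3 NADH dehydrogenases, with medians of 2.48, 3.23, 2.26 and 3.65. The complexes were drawn up after the values were seen. QCR10 of complex III had 724 and 1714 RPM at day 4, against 15.3 and 29.3 in log phase, and COX13 of complex IV had 984 and 1524 RPM at day 4, against 69.7 and 48.9 in log phase. RIP1, the Rieske iron-sulfur protein of complex III, had 851 and 1124 RPM at day 4, against 67.5 and 79.2 in log phase. CYC1, the main cytochrome c of aerobic cells, had 545 and 939 RPM at day 4, against 363 and 608 in log phase (log2 fold change -0.04 ± 0.53, FDR = 0.972), where single positions held 25.5 and 12.5% of its reads at day 4, against 34.5 and 66.6% in log phase, and without the highest position the value was 0.85. A single position also held 58.8% of the SDH3 reads in log phase replicate 1.

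**Figure D3:**
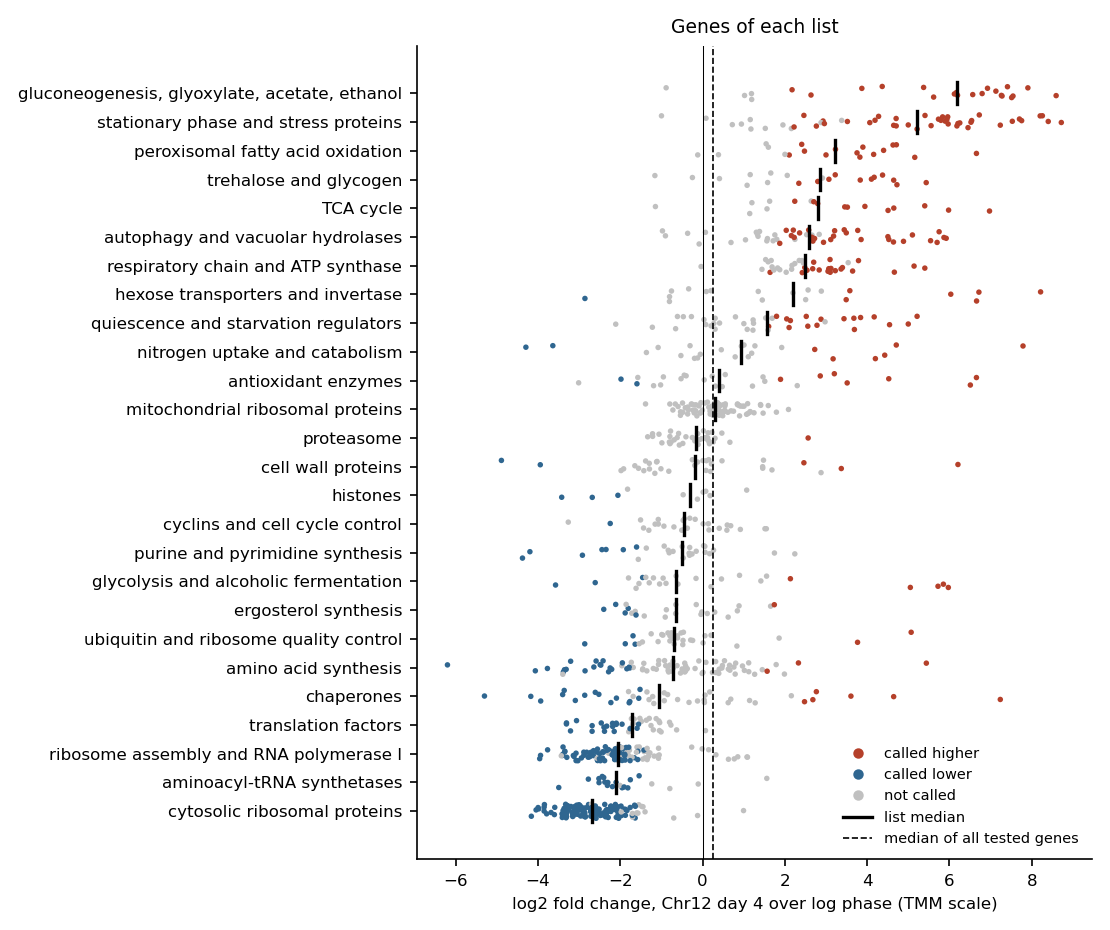
Log2 fold change of day 4 over log phase in Chr12 on the TMM scale (x axis) for the members of 26 gene lists. Red points rose, blue points fell and grey points were not called. Black bars are list medians, from -2.68 for ribosomal proteins to 6.18 for gluconeogenesis, glyoxylate, acetate and ethanol genes, and the dashed line is the median of all 5794 tested genes at 0.25.

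Glycolysis and fermentation had calls in both directions. Of 25 genes, 5 rose, 3 fell and 17 were not called (median -0.64, which turned to 0.21 with 1 read counted per position). The list held 9.70 and 9.14% of reads at day 4, against 14.2 and 11.5% in log phase. HXK2, the hexokinase of glucose-grown cells, had 162 and 88.5 RPM at day 4, against 1136 and 720.1 in log phase (log2 fold change -3.57 ± 0.52, FDR = 0.00495). GLK1, a glucokinase, had 858 and 1324 RPM at day 4, against 8.49 and 17.7 in log phase (log2 fold change 5.72 ± 0.82, FDR = 0.00495). ENO2 and ADH1 fell with log2 fold changes of -2.61 ± 0.72 and -1.46 ± 0.39, and both calls were lost by library totals, the ENO2 call also with 1 read counted per position. The ADH1 log2 fold change turned to 0.16 with 1 read counted per position. Of 19 genes for hexose transport and invertase, 6 rose and 1 fell (median 2.20), so that 36.8% were called. The median was 0.96 without day 4 replicate 1, 1.38 with the Chr12 libraries alone, 1.27 with 1 read counted per position and 0.22 among genes with 50 reads in each library. HXT6, a high-affinity transporter with a near-identical neighbour, had 5732 and 6941 RPM at day 4, against 40.3 and 36.8 in log phase (log2 fold change 6.71 ± 0.56, FDR = 0.00191). SUC2, the secreted invertase, had 449 and 568 RPM at day 4, against 35.3 and 20.2 in log phase (log2 fold change 3.58 ± 0.50, FDR = 0.00474). HXT2, which is used at low glucose, had the opposite sign with 144 and 212 RPM at day 4, against 1066 and 637 in log phase (log2 fold change -2.86 ± 0.63, FDR = 0.0159).

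In 13 pairs of genes that encode the same activity, chosen after their values had been seen, the gene that is minor in log phase took a larger part of the pair's footprints at day 4. The choice of pairs fixed this direction, so it is a description with no test. Of the reads of the hexokinases HXK1 and HXK2, HXK1 held 79.8 and 91.8% at day 4, against 1.04 and 0.903% in log phase. Of the glutamate dehydrogenases GDH3 and GDH1, GDH3 held 94.2 and 93.5% at day 4, against 2.13 and 4.70% in log phase. Of the Hsp70 genes SSA3 and SSA2, SSA3 held 70.9 and 67.7% at day 4, against 0.109 and 0.335% in log phase. The order of the pair was thus turned round in all 3. Of the alcohol dehydrogenases ADH2, which oxidises ethanol, and ADH1, which makes it, ADH2 held 36.6 and 30.2% at day 4, against 1.33 and 1.12% in log phase. Of the enolases, ENO1 held 71.1 and 68.1% at day 4, against 25.8 and 17.4% in log phase. Members of 5 pairs moved in opposite directions past the test, namely HXK1 and HXK2, ADH2 and ADH1, GDH3 and GDH1, SSA3 and SSA2, and SSE2 and SSE1. In the citrate synthase pair both genes rose, CIT2 of the peroxisome by 7.54 ± 1.42 and CIT1 of mitochondria by 4.65 ± 0.80 on the log2 scale. PYK2 remained a small part of pyruvate kinase, at 1.29 and 0.638% at day 4, against 0.0854 and 0.0846% in log phase. Pairs such as ENO1 and ENO2 are alike over long stretches, and the methods give no rule for reads that match both.

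**Figure D4:**
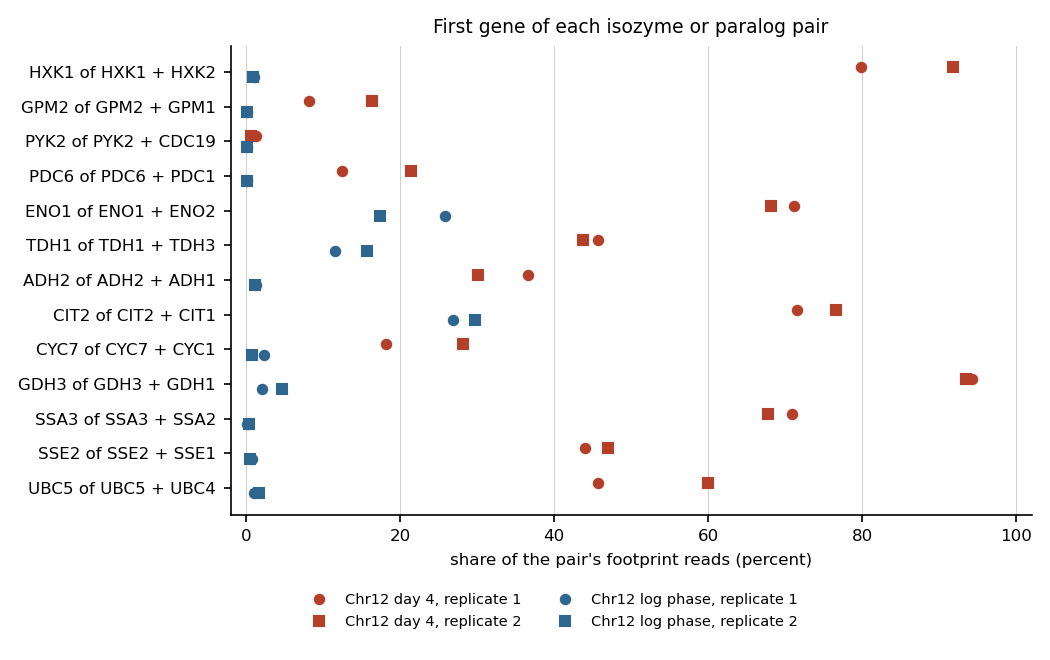
Share of the footprint reads of a pair of genes that belongs to the gene named first, in percent (x axis), for 13 pairs. Red marks are the Chr12 day 4 libraries and blue marks the Chr12 log phase libraries, circles replicate 1 and squares replicate 2. GDH3 stands at 94.2% and 93.5% at day 4, against 2.13% and 4.70% in log phase.

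Reserve carbohydrates, fat breakdown and stress proteins rose. Of 20 genes of trehalose and glycogen metabolism 11 rose (median 2.86). GSY2, a glycogen synthase, had 199 and 320.5 RPM at day 4, against 10.2 and 8.58 in log phase, and GLC3, the branching enzyme, had 318 and 427 RPM at day 4, against 10.6 and 8.58 in log phase. ATH1, the acid trehalase, had 300.3 and 301 RPM at day 4, against 11.5 and 7.06 in log phase. Of 19 genes of peroxisomal fatty acid oxidation 14 rose (median 3.23, and 4.01 without log phase replicate 1). FOX2, the multifunctional beta-oxidation enzyme, had 767 and 550.2 RPM at day 4, against 11.9 and 11.1 in log phase (log2 fold change 5.16 ± 0.48, FDR = 0.00191), and POT1, the thiolase, had 249.9 and 236 RPM at day 4, against 4.67 and 7.57 in log phase (log2 fold change 4.63 ± 0.53, FDR = 0.00272). Of 49 stationary phase and stress genes 38 rose (median 5.21), and they held 5.29 and 6.82% of reads at day 4, against 0.308 and 0.265% in log phase. MOH1, a gene of stationary phase survival, had 492 and 412 RPM at day 4, against 3.40 and 3.03 in log phase, and SPG5, a proteasome regulator of stationary phase, had 1507 and 1165 RPM at day 4, against 13.6 and 9.59 in log phase. HSP12, a membrane-stabilising stress protein named after its values were seen, had 3107 and 1576 RPM at day 4, against 2.97 and 12.1 in log phase, although a single position held 63.9 and 9.53% of its reads in day 4 replicates 1 and 2. None of these lists had a member that fell.

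Antioxidant enzymes had calls in both directions, the falls no more frequent than over all genes. Of 26, 7 rose and 2 fell, beside 13.2% and 9.67% of all genes tested (median 0.39, which turned to -0.03 without day 4 replicate 2). TRX3, the mitochondrial thioredoxin, had 179 and 176 RPM at day 4, against 12.3 and 12.1 in log phase (log2 fold change 3.20 ± 0.47, FDR = 0.00495). The catalases CTA1 and CTT1 rose, with log2 fold changes of 6.65 ± 0.89 and 6.51 ± 1.10, although single positions held 55.2 and 4.41% of the CTA1 reads and 69.9 and 4.68% of the CTT1 reads in day 4 replicates 1 and 2. TRR1, the cytosolic thioredoxin reductase, had 100.95 and 107 RPM at day 4, against 293 and 235 in log phase (log2 fold change -1.98 ± 0.46, FDR = 0.0186), a call lost by library totals.

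Of 42 chaperone genes 6 rose, 15 fell and 21 were not called (median -1.06). Those that fell included the chaperones that sit on ribosomes: ZUO1 had 139 and 152 RPM at day 4, against 1484 and 1839 in log phase (log2 fold change -4.18 ± 0.49, FDR = 0.00283), and SSZ1, its Hsp70 partner, had 182 and 142 RPM at day 4, against 1457 and 1624 in log phase (log2 fold change -3.93 ± 0.48, FDR = 0.00306). Of the 8 subunits of the CCT chaperonin, which folds actin and tubulin, 6 fell, in a list drawn up after the values were seen. The highest log2 fold change among the 8 was 1.14 and was not called. Together they held 0.255 and 0.179% of reads at day 4, against 0.253 and 0.255% in log phase. The 6 genes that rose were SSA3, SSE2, HSP26, HSP42, HSP78 and HSP104, known as stress-induced chaperones, and the HSP104 call was lost with DESeq2's size factors in edgeR. SSA3 had 1555 and 1495 RPM at day 4, against 19.1 and 55.5 in log phase (log2 fold change 4.64 ± 0.79, FDR = 0.00703).

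Genes of protein breakdown in the vacuole rose, and the proteasome list had 1 call. Of 49 autophagy and vacuolar hydrolase genes 28 rose and 0 fell (median 2.58). ATG8, the ubiquitin-like protein of the autophagosome membrane, had 215 and 346 RPM at day 4, against 3.40 and 3.53 in log phase (log2 fold change 5.70 ± 0.59, FDR = 0.00228). ATG33, which acts in mitophagy, had 439 and 466 RPM at day 4, against 7.22 and 3.53 in log phase (log2 fold change 5.75 ± 0.61, FDR = 0.00231), and ATG41 had 194 and 181 RPM at day 4, against 3.40 and 4.54 in log phase. Of 36 proteasome genes 1 rose and 0 fell, so that 2.78% were called, beside 22.9% of all genes tested. The list had a median of -0.16, which is 0.49 by library totals. The gene that rose was RPN4, the transcription factor that controls proteasome genes, with 249.9 and 366 RPM at day 4, against 31.005 and 35.8 in log phase (log2 fold change 2.56 ± 0.51, FDR = 0.0114). PUP2, a subunit of the core particle, had 139 and 167 RPM at day 4, against 189.8 and 260.4 in log phase (log2 fold change -1.21 ± 0.45, FDR = 0.0914), and 4 of 20 alternatives called it lower. Of 33 genes for ubiquitin and ribosome quality control 2 rose and 4 fell (median -0.69), so that 18.2% were called, beside 22.9% of all genes tested. The 2 that rose were UBC5, a ubiquitin-conjugating enzyme of stressed cells, with 53.001 and 137 RPM at day 4, against 1.70 and 2.02 in log phase (log2 fold change 5.07 ± 0.74, FDR = 0.00495), and the polyubiquitin gene UBI4, with 1883 and 2242 RPM at day 4, against 102.4 and 91.8 in log phase (log2 fold change 3.77 ± 0.56, FDR = 0.00495). The 4 that fell were SKI8, GCN20, GCN1 and RPS31. SKI8, of the complex that feeds the exosome in mRNA decay, had 22.7 and 16.2 RPM at day 4, against 41.6 and 46.4 in log phase, and GCN20, which works with Gcn1 on ribosomes, had 78.2 and 68.8 RPM at day 4, against 148 and 151 in log phase. RPS31, which encodes ubiquitin fused to a ribosomal protein, had 578 and 1216 RPM at day 4, against 2817 and 5535 in log phase. The SKI8 and GCN20 calls were lost by library totals, and the RPS31 call with 1 read counted per position.

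Part of the genes of biosynthetic pathways fell. In the amino acid, the purine and pyrimidine and the ergosterol list, 29.1, 25.9 and 26.1% of genes were called, beside 22.9% of all genes tested. Of 79 genes of amino acid synthesis 20 fell and 3 rose (median -0.72). ARO2, chorismate synthase, had 53.001 and 55.3 RPM at day 4, against 417 and 521 in log phase (log2 fold change -3.77 ± 0.48, FDR = 0.00372), ASN2, an asparagine synthetase, had a log2 fold change of -3.36 ± 0.53, and GDH1, which makes glutamate from ammonium, had -3.21 ± 0.53. Of 27 purine and pyrimidine genes 7 fell and 0 rose, with a median of -0.50, which is 0.17 by library totals. URA7, CTP synthase, had 60.6 and 39.1 RPM at day 4, against 525 and 597 in log phase, and URA6, a uridylate kinase, had 55.5 and 20.2 RPM at day 4, against 130.4 and 113 in log phase. IMD4, an IMP dehydrogenase with near-identical copies, had 88.3 and 52.6 RPM at day 4, against 1144 and 689 in log phase. Of 23 ergosterol genes 5 fell and 1 rose (median -0.65 on the TMM scale and -0.02 by library totals). The list as a whole held 1.71 and 1.71% of reads at day 4, against 1.08 and 1.11% in log phase. These shares are on the scale of library totals and cannot be set against the TMM median. MVD1, ERG2 and ERG8 had log2 fold changes of -2.40 ± 0.48, -2.11 ± 0.41 and -1.88 ± 0.41, and HMG2, an HMG-CoA reductase, rose by 1.74 ± 0.43. Of 23 genes of nitrogen uptake and catabolism 6 rose and 2 fell, so that 34.8% were called, beside 22.9% of all genes tested. Their median was 0.94, with -0.28 without day 4 replicate 1 and 0.33 without log phase replicate 2. PUT4, a proline permease, had 623 and 1096 RPM at day 4, against 2.97 and 2.02 in log phase (log2 fold change 7.79 ± 0.93, FDR = 0.00298). GDH2, which breaks down glutamate, had 851 and 1189.8 RPM at day 4, against 23.8 and 26.2 in log phase, and UGA1, the transaminase of gamma-aminobutyrate, had 227 and 351 RPM at day 4, against 11.9 and 8.58 in log phase. CAR1 ran the other way, with 53.001 and 29.7 RPM at day 4, against 404 and 571 in log phase (log2 fold change -4.29 ± 0.53, FDR = 0.00321).

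Of 27 genes for cyclins and cell cycle control 1 fell and 0 rose, so that 3.70% were called, beside 22.9% of all genes tested. The list had a median of -0.44, which is 0.23 by library totals. The gene that fell was POL30, the sliding clamp of DNA replication, with 55.5 and 53.9 RPM at day 4, against 152 and 176 in log phase (log2 fold change -2.25 ± 0.50, FDR = 0.0166). MCM2, of the replicative helicase, had 50.5 and 53.04 RPM at day 4, against 81.5 and 82.3 in log phase (log2 fold change -1.31 ± 0.42, FDR = 0.0594), and 9 of 19 alternatives called it lower. Of 10 histone genes 3 fell, HTB2, HTA2 and HHF1, and 0 rose, so that 30.0% were called. The histone median was -0.30, which is 0.34 by library totals. The HHF1 call was lost by library totals and with 1 read counted per position. HTB2 had 35.3 and 82.3 RPM at day 4, against 528 and 335 in log phase (log2 fold change -3.42 ± 0.67, FDR = 0.0110). Of 33 cell wall genes 3 rose and 2 fell (median -0.19, and 0.44 by library totals), so that 15.2% were called, beside 22.9% of all genes tested. SPI1, a wall protein of stationary phase, had 159 and 173 RPM at day 4, against 1.27 and 1.51 in log phase (log2 fold change 6.21 ± 0.65, FDR = 0.00228). CCW12, a major wall protein, had 790.0 and 712 RPM at day 4, against 11669.6 and 3495 in log phase (log2 fold change -3.94 ± 1.20, FDR = 0.0496), a call lost in 4 alternatives beside those that left out a library.

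Of 40 regulators of starvation and quiescence, 17 rose and 0 fell (median 1.56). XBP1, a repressor of G1 cyclins in quiescent cells, had 202 and 213 RPM at day 4, against 4.67 and 3.53 in log phase (log2 fold change 4.998 ± 0.53, FDR = 0.00228). CAT8, the activator of gluconeogenic genes, had 313 and 261 RPM at day 4, against 8.92 and 6.56 in log phase (log2 fold change 4.54 ± 0.55, FDR = 0.00306). The day 4 libraries lay above both log phase libraries in share for 34 of the 40, beside 51.8% of all genes tested.

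The same contrast was made in the euploid, whose day 4 libraries held 211302 and 6215498 reads, replicate 1 being the shallowest of all 8. There, 901 genes rose (15.6% of genes tested) and 674 fell (11.6%). The 2 contrasts share no library, but both came from 1 fit with the same count filter, scaling and shared spread, so they are not independent. Of the genes called in Chr12, 82.4% were called the same way in the euploid, and of those called in the euploid 69.4% were called the same way in Chr12. Only 2 genes were called in opposite directions. The difference of the day 4 response between the strains was called for 0 of 5794 genes (0.0%) by edgeR, with 245 at an unadjusted p under 0.05 and a smallest FDR of 0.106, and for 36 genes by DESeq2. HXT6, 1 of the 2 genes at that smallest FDR, had 5732 and 6941 RPM at day 4, against 40.3 and 36.8 in log phase in Chr12, and 251 and 273 at day 4, against 89.7 and 79.7 in log phase, in the euploid. The responses differed by 5.44 ± 0.66 on the log2 scale (FDR = 0.106), and the other gene at this FDR is the near-identical neighbour. SUC2 had 449 and 568 RPM at day 4 in Chr12 and 42.6 and 25.3 in the euploid, a difference in response of 3.29 ± 0.68 (FDR = 0.590). IMA2 had 2065 and 1757 RPM at day 4 in Chr12 and 14.2 and 23.01 in the euploid, a difference of 6.48 ± 1.16 (FDR = 0.504).

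The respiratory list had the largest median difference between the strains. In Chr12 it held 2.26 and 4.01% of reads at day 4, against 0.378 and 0.451% in log phase, and in the euploid it held 0.975 and 1.55% of reads at day 4, against 0.930 and 0.863% in log phase. Its median log2 fold change was 2.48 in Chr12 and 0.35 in the euploid, and the median of the difference was 2.32. For that difference 18 of 37 genes had an unadjusted p under 0.05 (edgeR), beside 4.23% of all genes tested. The list was singled out by this same difference, so the count follows in part from the choice and is no test. None of the 37 genes passed the FDR. The 2 euploid pairs were far apart, with list medians of -0.56 in replicate 1, whose day 4 library was the shallowest, and 1.02 in replicate 2. The Chr12 pairs had 2.16 and 2.87. In Chr12, stationary phase and stress genes held 5.29 and 6.82% of reads at day 4, against 0.308 and 0.265% in log phase, and in the euploid they held 14.2 and 15.3% of reads at day 4, against 0.321 and 0.297% in log phase. Their medians were 5.21 in Chr12 and 6.11 in the euploid. Ribosomal proteins held 6.84 and 7.47% of reads at day 4, against 28.8 and 31.8% in log phase in Chr12, and 3.82 and 4.09% of reads at day 4, against 32.6 and 33.5% in log phase in the euploid. None of these list differences was tested as a whole.

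**Figure D5:**
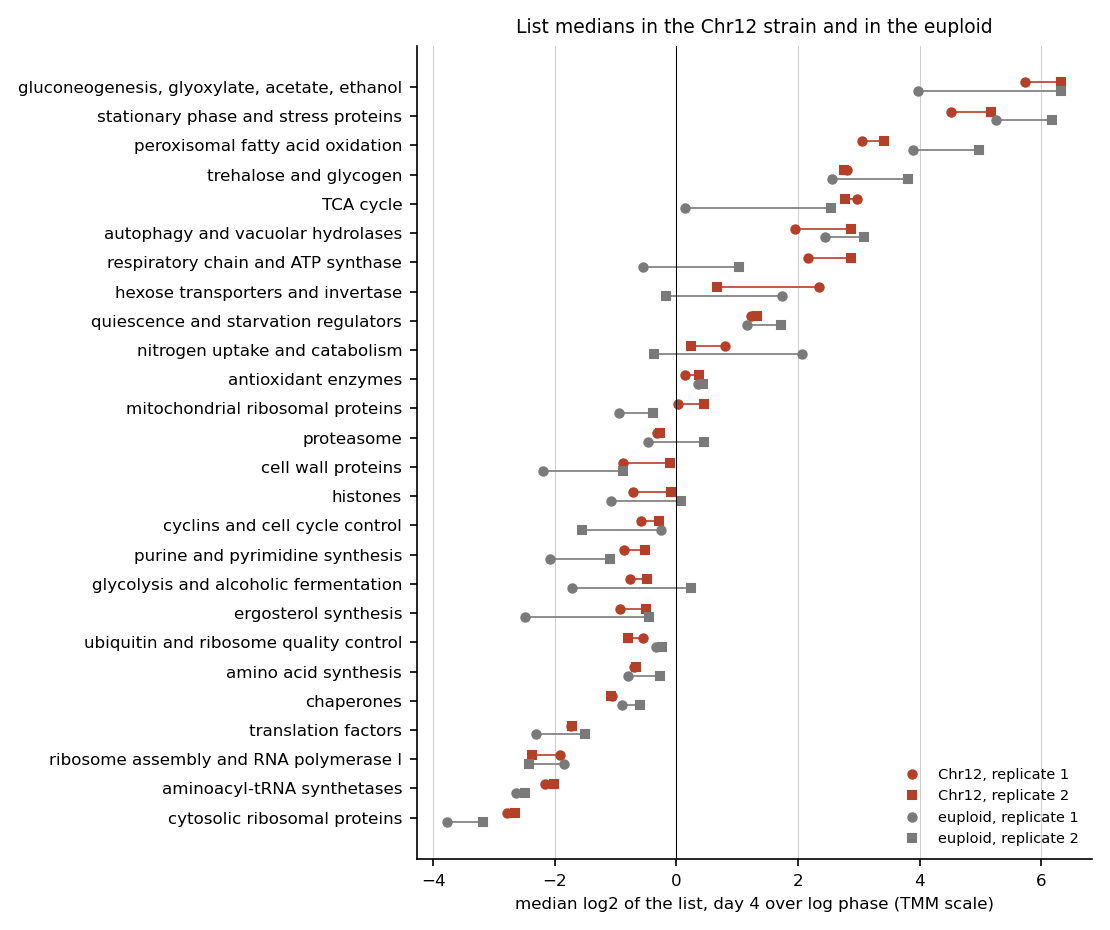
Median log2 fold change of day 4 over log phase (x axis, TMM scale) of 26 gene lists in each replicate pair. Red marks are Chr12 and grey marks the euploid, circles replicate 1 and squares replicate 2, with a line between the pairs of a strain. The respiratory list lies at 2.16 and 2.87 in Chr12 and at -0.56 and 1.02 in the euploid.

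Of 499 genes of chromosome XII tested, 71 rose (14.2%, beside 13.2% of all genes) and 66 fell (13.2%, beside 9.67% of all genes), with a median log2 fold change of 0.19, against 0.25 for genes of the other chromosomes. The chromosome held 12.5 and 13.7% of all reads at day 4, against 19.5 and 18.7% in log phase, in Chr12. The share of chromosome XII was lower at day 4 in the euploid too, at 7.92 and 7.43%, against 13.05 and 12.43% in log phase. YEF3 and SSA2, both on chromosome XII, are among its genes that fell, and SDH2 and UBI4 are among those that rose.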

How the data were processed

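Ribosome footprints of 8 libraries, 2 per group, were measured. Per the study's methods, the authors trimmed reads, removed those of noncoding RNA, mapped the rest to the YPS1009 genome without splicing, and scored 5' ends. The deposited values are raw counts per nucleotide of each gene, which were summed per row. No rule for reads that match several genes and no duplicate removal were given. Groups came from the labels. Of 12 tables, 4 hold a second count for replicate 1 and served as an alternative.

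Counts were tested in edgeR 4.0.16 (R 4.3.3) with TMM, filterByExpr, a quasi-likelihood fit of 4 group means over 8 libraries, and Benjamini-Hochberg FDR of 0.05. The SE is the log2 fold change over the square root of F. DESeq2 1.42.0 was an alternative. Fits were tested on simulated data. The labels call the replicates biological duplicates. Members and lists were chosen with earlier results of these data known. Named genes were the 12 most extreme called genes each way above median abundance with both pairs of 1 sign, in each list 3 of smallest p in the direction of its median and 1 called the other way, the 10 of largest share at day 4 and in log phase, the strain markers, and others said to be chosen after their values were seen. No set test was run, and promoter motifs were not analysed here. Other alternatives were scaling, count filters, gene body, single reads per position, and leaving out each library.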

Additional observations from a re-analysis of the deposited data

Results flagged for a closer look

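Values are shown for 4 results in which both Chr12 pairs moved one way and both euploid pairs the other. For the mitochondrial ribosomal protein list, the pair medians were 0.03 and 0.45 in Chr12 and -0.94 and -0.38 in the euploid, with a median difference in response of 0.83, and the difference of the list was not tested.

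FIT2 and FIT3, mannoproteins of the cell wall that help retain iron, rose in Chr12 and had negative values in the euploid. FIT3 had 656 and 507 RPM at day 4, against 115 and 36.3 in log phase, in Chr12, and 14.2 and 8.21 at day 4, against 47.7 and 46.05 in log phase, in the euploid, a difference in response of 4.88 ± 0.83 (FDR = 0.439, edgeR). FIT2 had 434 and 831 RPM at day 4, against 71.8 and 17.7 in log phase, in Chr12, and 18.9 and 4.67 at day 4, against 28.3 and 27.5 in log phase, in the euploid, a difference of 5.36 ± 1.19 (FDR = 0.599, edgeR). ATP1, the alpha subunit of the ATP synthase, had 2244 and 3396 RPM at day 4, against 489 and 749.9 in log phase, in Chr12 (log2 fold change 1.53 ± 0.84, not called), and 260.3 and 1488 at day 4, against 1520.2 and 1534 in log phase, in the euploid, a difference of 2.58 ± 1.19 (FDR = 0.999, edgeR). None of the 3 gene differences passed the FDR.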

How the results depend on the processing

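The direction of the calls depended little on the processing and their number much on it. The direction was largely fixed beforehand, since both day 4 shares of every called gene lay outside both log phase shares. Against 767 higher and 560 lower genes, scaling by library totals gave 1277 and 338, and requiring 50 reads in each Chr12 library gave 219 and 279 of 1037 genes tested. Genes that fell numbered 935 with 1 read counted per position and 1102 with the second tables for replicate 1. Leaving out 1 library gave 52 to 941 higher and 10 to 864 lower genes, the lowest without Chr12 log replicate 2, in fits where a lone library is assumed to vary like the other groups. Of all settings, only 1 read per position turned the sign of called genes (6), among named genes ADH1 (0.16), RPL41A (0.25) and RPL41B (0.25). The difference between strains was called for 36 genes by DESeq2, 21 with 1 read per position, 4 without the highest position, 2 by library totals and 2 at 50 reads, and for 0 in every fit that left out a library.

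List medians near 0 changed sign. Library totals gave 0.490 for the proteasome, 0.171 for purine and pyrimidine synthesis and 0.231 for cyclins. At 50 reads the values were 0.0535 for the proteasome, 0.00959 for ergosterol, 0.378 for the 2 cyclin genes left and 0.214 for the 14 cell wall genes left. Histones stood at 0.340 by library totals and at 0.0375 without day 4 replicate 1, and cell wall genes at 0.444 by library totals. Glycolysis stood at 0.213 with 1 read per position, and mitochondrial ribosomal proteins at -0.0290 with the second tables. Leaving out 1 library gave -0.232 to 0.540 for mitochondrial ribosomal proteins, -0.0281 to 0.514 for antioxidant enzymes, -0.696 to 0.0443 for the proteasome, -0.277 to 1.43 for nitrogen genes and -0.886 to 0.0112 for cyclins, where the ends came from leaving out 1 of the day 4 libraries, or log replicate 2 for the upper end of the proteasome. Medians far from 0 kept their sign but moved: at 50 reads gluconeogenesis and related genes stood at 3.42, stress genes at 2.60, trehalose and glycogen at 2.10 and autophagy at 1.71, and with 1 read per position gluconeogenesis stood at 5.01, stress genes at 3.84 and the respiratory list at 1.67. The causes were not tested.

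With the replicate number as a replicate block, 956 genes rose, 743 fell and 0 differed between strains. The labels give the samples no shared origin beyond the number. The study's methods paired aneuploid and euploid footprint profiles by replicate, and the main fit did not use this pairing. Whether day 4 and log phase samples of the same number share an origin is not stated, and 2 pairs are too few to settle it. Deviations of same-numbered libraries correlated at 0.331 and 0.230 between times (Chr12, euploid) and at 0.604 and 0.690 between strains. Depth was lowest in euploid day 4 replicate 1, where 713 genes had 50 reads or more, and then in Chr12 day 4 replicate 1 (1478 genes), and genes with near-identical copies remain uncertain.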

Other observations

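The lists in this section were drawn up after the values had been seen, so their counts are descriptions. Over all genes tested, 13.2% rose and 9.67% fell. Of 15 phosphate starvation genes 9 rose at day 4 and 0 fell (median log2 fold change 2.85), and they held 1.33 and 1.86% of reads at day 4, against 0.125 and 0.106% in log phase. PHO84, the high-affinity phosphate transporter, had 4836 and 5153 RPM at day 4, against 364 and 173 in log phase (log2 fold change 3.60 ± 0.74, FDR = 0.0131, edgeR), and PHO5, the secreted acid phosphatase, had 492 and 893 RPM at day 4, against 25.5 and 26.7 in log phase (log2 fold change 4.11 ± 0.72, FDR = 0.00764, edgeR). SPL2, which limits low-affinity phosphate uptake, had 507 and 721 RPM at day 4, against 2.12 and 3.53 in log phase. In the euploid 8 of the 15 rose and the median was 3.03, while PHO5 had 18.9 and 58.6 RPM at day 4, against 25.01 and 26.1 in log phase.

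Of 10 zinc starvation genes 4 rose and 1 fell (median 1.70), beside 13.2% and 9.67% of all genes tested. ZRT1, the high-affinity zinc transporter, had 2067 and 1439.7 RPM at day 4, against 5.52 and 9.08 in log phase (log2 fold change 7.20 ± 0.66, FDR = 0.00191, edgeR). Of 22 iron and copper uptake genes 5 rose and 1 fell, beside the same 13.2% and 9.67%. Their median was 1.20 in Chr12 and -0.68 in the euploid. FET3, the multicopper oxidase of iron uptake, had 169 and 262 RPM at day 4, against 285 and 404 in log phase in Chr12 (log2 fold change -1.32 ± 0.51, FDR = 0.101, edgeR), and 33.1 and 17.1 at day 4, against 408 and 443 in log phase, in the euploid.

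Of 17 methionine and S-adenosylmethionine genes 7 fell and 2 rose (median -1.75), beside 9.67% and 13.2% of all genes tested. SAM2, the second S-adenosylmethionine synthetase, had 55.5 and 74.2 RPM at day 4, against 509.7 and 412 in log phase (log2 fold change -3.44 ± 0.53, FDR = 0.00559, edgeR). Of 9 isomaltase and maltase genes, which are near-identical in part, 4 rose and 0 fell, and they held 0.404 and 0.345% of reads at day 4, against 0.00637 and 0.00227% in log phase. In the euploid they held 0.0573 and 0.0184% of reads at day 4, against 0.00496 and 0.00344% in log phase.

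HAP4, the activator subunit that controls respiratory genes, had 247 and 296 RPM at day 4, against 20.4 and 12.1 in log phase in Chr12 (log2 fold change 3.44 ± 0.78, FDR = 0.0178, edgeR), and 18.9 and 103 at day 4, against 30.7 and 28.9 in log phase, in the euploid, a difference in response of 2.54 ± 1.03 (FDR = 0.999, edgeR). CYC1 had log2 fold changes of -0.04 in Chr12 and -3.63 in the euploid, a difference of 3.59 ± 0.78 (FDR = 0.590, edgeR).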
